A study of Mus musculus with 55 samples.

Results

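The genes described here are 10 antioxidant and metallothionein genes, Mt1, Mt2, Mt3, Hmox1, Nqo1, Srxn1, Txnrd1, Gclc, Gclm and Nfe2l2, followed over every stage, stimulus and time of the study. They were chosen by name, and all 10 were found among the 27020 genes named in both count tables. Each gene is represented by its RefSeq transcript with the most counts. The cultures were primary mouse neurons from forebrain (cortex and hippocampus) of CD1 embryos of mixed sex, and RNA was counted at transcript 3' ends after CEL-Seq2 library preparation. The maturation experiment held 28 samples in 10 groups of 2 or 3: neurons at 7 days in vitro (7DIV) and at the stage the study calls 21DIV (23 days in the sample labels), each unstimulated (basal) or stimulated for 15 or 180 min with 55 mM KCl, or with 50 uM bicuculline plus 2.5 mM 4-aminopyridine (Bic+4AP). The stimuli experiment held 27 samples in 11 groups of 2 to 4, all at 21DIV: basal, KCl at 55 mM, bicuculline alone at 50 uM (Bic), TTX at 1 uM for 48 h (basal TTX), and TTX withdrawal (TTXw), with the 3 stimuli at 15, 45 and 180 min. KCl depolarises the membrane directly, Bic blocks GABA-A receptors and so raises network activity, TTX blocks sodium channels and silences firing, and TTXw lets firing return after silencing. TTXw was done by repeated exchanges with fresh medium. KCl and Bic cultures received no TTX before stimulation. The labels name no transgene or deletion in any sample.

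Antioxidant genes of this kind share a well-known control. The transcription factor NRF2, encoded by Nfe2l2, is kept low by KEAP1 and, when electrophiles or oxidants modify KEAP1, it binds antioxidant response elements (AREs) together with small MAF proteins. Its classical targets include Hmox1 (haem oxygenase, which degrades haem), Nqo1 (a quinone reductase), Srxn1 (sulfiredoxin, which repairs over-oxidised peroxiredoxins), Txnrd1 (cytosolic thioredoxin reductase), and Gclc and Gclm (the catalytic and modifier subunits of glutamate-cysteine ligase, the rate-limiting enzyme of glutathione synthesis). Metallothioneins are small cysteine-rich proteins that bind zinc and copper. Mt1 and Mt2 are induced by metals through MTF1 at metal response elements (MREs) and by glucocorticoids and oxidants, whereas Mt3 is a mostly neural metallothionein that is little induced by metals. In brain, Mt1, Mt2 and many NRF2 targets are known to be higher in astrocytes than in neurons.

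In GRCm38.p6 the 3 metallothionein genes lie side by side on chromosome 8 (Mt3 at chr8:94152607-94154148, Mt2 at chr8:94172618-94173567 and Mt1 at chr8:94178883-94180327). Hmox1 (chr8:75093618-75100593) and Nqo1 (chr8:107388225-107403205) are on the same chromosome. Nfe2l2 (chr2:75675513-75704663) and Srxn1 (chr2:152105524-152111376) are on chromosome 2, Gclm (chr3:122245487-122267215) is on chromosome 3, Gclc (chr9:77754535-77794489) is on chromosome 9 and Txnrd1 (chr10:82833951-82897724) is on chromosome 10.

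RefSeq promoter windows (GRCm38.p6, 250 bases before to 50 after a transcript start) were at hand for 8 of the 10 genes, Hmox1 and Gclc not among them. Mt2 and Srxn1 are shown because both rose strongly 180 min after TTXw and their windows hold AP-1 letters, and Mt3 because it lies beside Mt2 and did not pass the test there. Each line gives the 200 bases before the start on the + strand, 5' to 3', with capitals for matches to the MRE core (TGCACNC or TGCGCNC), the ARE core (TGACNNNGC) or the AP-1 site (TGACTCA or TGAGTCA) on either strand.
Mt2 (chr8:94172418-94172617): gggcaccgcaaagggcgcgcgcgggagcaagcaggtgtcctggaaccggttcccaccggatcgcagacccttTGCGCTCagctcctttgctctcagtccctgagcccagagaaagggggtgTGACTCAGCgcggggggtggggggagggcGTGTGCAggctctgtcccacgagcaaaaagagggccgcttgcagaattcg
Srxn1 (chr2:152105324-152105523): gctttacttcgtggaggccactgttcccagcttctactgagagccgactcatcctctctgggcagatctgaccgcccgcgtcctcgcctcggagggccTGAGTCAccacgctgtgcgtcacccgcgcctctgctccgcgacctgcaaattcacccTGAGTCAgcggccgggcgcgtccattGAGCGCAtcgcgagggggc
Mt3 (chr8:94152407-94152606): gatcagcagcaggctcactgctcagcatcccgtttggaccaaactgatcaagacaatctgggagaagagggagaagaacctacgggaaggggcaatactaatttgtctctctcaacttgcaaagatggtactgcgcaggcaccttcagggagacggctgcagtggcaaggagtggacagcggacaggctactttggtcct

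In the whole 300-base windows, Mt2 held 4 MRE cores and 1 ARE core, and that ARE core overlaps its single AP-1 site. Srxn1 held 1 MRE core, 2 AP-1 sites and, after the start, 1 ARE core. Mt3 held 1 MRE core, which lies after the start and so is not in the printed stretch. Of the other genes, Mt1 and Gclm each held 3 MRE cores, and Gclm also 1 ARE core. Their windows (chr8:94178839-94179138 and chr3:122245307-122245606) were set on transcript starts inside the gene spans given above. Less of the sequence before those spans is therefore covered, for Mt1 most of all. The Nfe2l2 window and 1 of the 3 Txnrd1 windows held 1 ARE core each, and the Nqo1 window held none of the 3 motifs. Over all 32851 windows of this length, 25.7% held an MRE core, 1.97% held 3 or more and 0.517% held 4 or more. An ARE core was found in 12.4% of windows, an AP-1 site in 5.2% and 2 or more AP-1 sites in 0.222%. The windows of Mt1, Gclm, Nfe2l2 and Txnrd1, which also rose after TTXw, held no AP-1 site. Those of Mt3 and Nqo1, which did not pass the test there, held no AP-1 site either. Mt2 and Srxn1 were picked for both their rise and their AP-1 letters. A link between these letters and the rise was not tested. These matches describe letters and not binding.

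Counts assigned to named genes ran from 1659263 to 14008626 per sample in the maturation experiment (median 3502561) and from 1176887 to 3907601 in the stimuli experiment (median 2383101). Levels below are counts scaled to library size with TMM factors (CPM), to be compared between samples of a gene and not between genes. In a comparison, a gene was called when its edgeR quasi-likelihood adjusted p was under 0.05 and its change at least 1.5-fold, and differences between responses needed only the adjusted p. The labels do not say whether samples of a group came from separate cultures, so the tests measure the spread between these samples, which may be technical. Neuron markers were present throughout, at summed levels of 6924 to 10715 CPM in the maturation and 4534 to 11070.0 CPM in the stimuli experiment over 10 genes. The cultures also held glial RNA: 12 astrocyte markers summed to 649 to 936 CPM at basal 7DIV, 4951 to 6030.0 CPM at basal 21DIV and up to 16706 CPM after TTXw. The 10 microglia markers summed to 1.44 to 20.6 CPM in the 2 experiments, with Trem2 at 0 in every maturation sample, and 1 of 9 endothelial and fibroblast markers passed the filter on low values. In these bulk samples, fewer cells of a type and less RNA per cell cannot be told apart.

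Between unstimulated 7DIV and 21DIV neurons, 7 of the 9 tested genes rose and 1 fell. Over all 10506 genes tested, 33.1% were called, 18.2% upward, and the median log2 change of the 9 genes was 1.75 against 0.01 for all genes. Nqo1 was not tested, as it had 0 counts in all 3 basal 7DIV samples and 14, 18 and 24 counts in the basal 21DIV samples. Its count was 26 at most in any of the 55 samples. Hmox1 and Mt3 passed the filter on low values (more than 5 CPM in 2 or more samples) through their 21DIV samples. They were thus tested only because they were high there, and the count of risen genes depends in part on this filter.

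Hmox1, which entered the test through its 21DIV samples, had the largest fitted fold change of the 9 tested genes. It stood at 2.45, 2.98 and 7.58 CPM in the 7DIV samples and at 44.9, 50.8 and 52.02 CPM in the 21DIV samples, so that the groups did not come near each other. Its log2 fold change was 3.56 ± 0.32 (SE, edgeR adjusted p = 1.54e-06). The 7DIV values rest on 4, 11 and 16 counts.

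The metallothioneins all rose with stage. Mt1 was at 193, 194 and 202 CPM at 7DIV and 604, 625 and 1199.9 CPM at 21DIV, a log2 fold change of 2.07 ± 0.22 (SE, edgeR adjusted p = 7.78e-06). Mt2 was at 36.8, 70.4 and 75.8 CPM and 89.6, 116.99 and 243 CPM, giving 1.30 ± 0.33 (SE, edgeR adjusted p = 0.00648). One 21DIV sample was the highest for both Mt1 and Mt2, and without it (basal 21DIV replicate 1) the Mt2 change was 0.77. Mt3 was low at 7DIV, 2.44, 2.45 and 2.84 CPM from 4, 6 and 9 counts, and reached 9.74, 12.7 and 13.7 CPM at 21DIV, a change of 2.24 ± 0.39 (SE, edgeR adjusted p = 0.000439). In none of the 3 metallothioneins did the stages overlap, and how many of all genes separate in this way was not counted.

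Among the redox enzymes the directions differed. Srxn1 rose from 21.7, 29.5 and 29.8 CPM to 68.3, 86.2 and 108 CPM (log2 1.75 ± 0.22 SE, edgeR adjusted p = 2.83e-05). Gclm rose less, from 17.8, 18.9 and 20.6 CPM to 27.7, 31.99 and 32.7 CPM (log2 0.71 ± 0.21 SE, edgeR adjusted p = 0.0152). Txnrd1 was the gene that fell, from 37.9, 42.95 and 43.9 CPM to 24.0, 25.8 and 27.5 CPM (log2 -0.67 ± 0.19 SE, edgeR adjusted p = 0.0118). Gclc, the partner of Gclm, overlapped between stages, with 28.8 to 45.2 CPM at 7DIV and 36.7 to 52.4 CPM at 21DIV (log2 0.35 ± 0.21 SE, edgeR adjusted p = 0.224). Nfe2l2 itself rose from 3.07, 5.69 and 8.67 CPM to 23.2, 23.6 and 26.5 CPM (log2 1.99 ± 0.31 SE, edgeR adjusted p = 0.000201). The Gclm and Txnrd1 calls were lost without basal 21DIV replicate 3 (changes from 0.63 to 0.76 and from -0.75 to -0.60), with thinned counts (0.46 and -0.65) and with a replicate block (0.72 and -0.63), whereas the other 6 calls were kept without each of the 6 samples in turn.

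Glial markers moved the same way between the stages. Of the 12 astrocyte markers 11 were called upward, with a median log2 change of 2.41 and a range from 0.19 to 4.35, and none of the 9 tested antioxidant and metallothionein genes exceeded the highest of them. All 8 tested oligodendrocyte lineage markers were also called upward. Of the 10 neuron markers 7 were called upward and 3 downward, and their sum was 10183 to 10366 CPM at 7DIV and 7959 to 9254 CPM at 21DIV. The part of this glial RNA in the changes above was not tested. The plot of levels by sample in the maturation experiment sets the stages side by side.

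**Figure D1:**
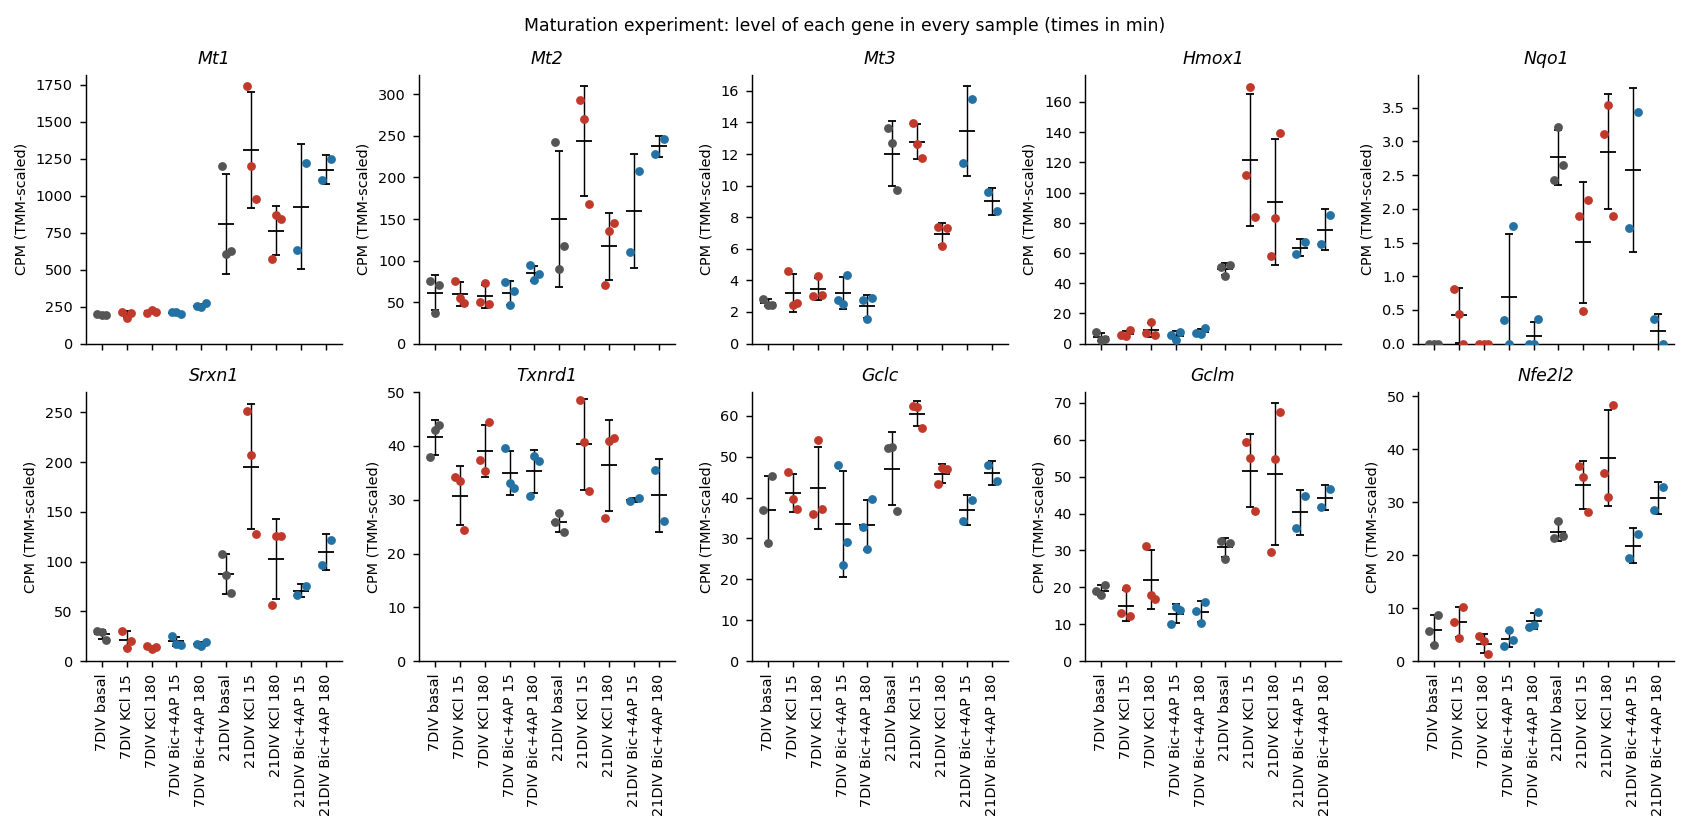
Level of each of the 10 genes in every sample of the maturation experiment (y axes, TMM-scaled CPM on linear scales from 0; x axes, stage, stimulus and time in min). Points are samples, and black bars give mean ± SD of 2 or 3 samples, cut at 0. Hmox1 was at most 14.04 CPM in the 7DIV samples and at least 44.9 CPM in the 21DIV samples, stimulated ones included.

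At 7DIV none of the 9 tested genes was called after any stimulus. The share of all genes called was 0% at 15 min of KCl, 1.98% at 180 min of KCl, 0% at 15 min of Bic+4AP and 0% at 180 min of Bic+4AP, so there was little to compare with. At an unadjusted p under 0.05, edgeR gave 1 of the 9 at 15 min of KCl (Txnrd1), 3 at 180 min of KCl (Hmox1, Nfe2l2 and Srxn1) and 0 after Bic+4AP, and DESeq2 called 0 of them in all 4 comparisons. The 4 comparisons share their 3 basal samples. Srxn1 after 180 min of KCl had a log2 change of -0.93 ± 0.34 (SE, edgeR adjusted p = 0.19). Hmox1 there had 1.06 ± 0.50 (SE, edgeR adjusted p = 0.37), from 5.77, 7.29 and 14.04 CPM. Mt1 stayed within 174 to 272 CPM over all 15 samples at 7DIV.

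At 21DIV, 15 min of KCl came with higher levels of 5 of the 9 tested genes: Hmox1, Srxn1, Gclm, Mt1 and Txnrd1. In that comparison 6.21% of 11742 genes were called, 3.20% upward. All 9 fitted changes were above 0, with a median of 0.69 against 0.00 for all genes.

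Hmox1 went from 44.9, 50.8 and 52.02 CPM in the basal samples to 83.6, 111.4 and 169.7 CPM after KCl, with no overlap and a log2 fold change of 1.30 ± 0.28 (SE, edgeR adjusted p = 0.00405). Srxn1 was at 127.6, 207 and 251 CPM after KCl against 68.3, 86.2 and 108 CPM basally, also apart, with 1.16 ± 0.25 (SE, edgeR adjusted p = 0.00405). Gclm reached 40.6, 55.1 and 59.3 CPM (log2 0.75 ± 0.24 SE, edgeR adjusted p = 0.048) and Txnrd1 31.7, 40.8 and 48.5 CPM (log2 0.66 ± 0.19 SE, edgeR adjusted p = 0.0252), both above their basal samples. The Mt1 samples overlapped, at 975, 1201 and 1739 CPM after KCl against 604, 625 and 1199.9 CPM (log2 0.69 ± 0.22 SE, edgeR adjusted p = 0.043). Mt2 had a fitted change of the same size without passing the test, 0.70 ± 0.30 (SE, edgeR adjusted p = 0.149).

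Support for these 5 calls was uneven. Hmox1 and Srxn1 were called without each of the 6 samples in turn (lowest log2 changes 0.99 and 0.95) and in all 9 other settings. Gclm, Mt1 and Txnrd1 each lost the call without basal replicate 2, basal replicate 3, KCl replicate 1 or KCl replicate 2, leaving 2 of the 5, and Gclm also without basal replicate 1. Over these fits the Mt1 change ran from 0.44 to 1.08, that of Gclm from 0.64 to 0.89 and that of Txnrd1 from 0.50 to 0.80. KCl replicate 1 is the deepest library of the experiment, at 14008626 counts. The summed astrocyte markers were 4523 to 5048 CPM after KCl and 4951 to 6030.0 CPM basally, and the summed neuron markers 6924 to 7738 CPM and 7959 to 9254 CPM. The microglia sum was higher after KCl without overlap, at 11.5 to 20.02 CPM against 4.29 to 8.99 CPM, with Trem2 at 0 in both groups and 0 of 3 tested markers called. The oligodendrocyte lineage sum was lower without overlap, at 1914 to 2148 CPM against 2409 to 3172 CPM, with 1 of 8 tested markers called downward. The part of these markers in the result was not tested.

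Later and with the other stimulus, little remained past the threshold at 21DIV. After 180 min of KCl (4.88% of genes called), Hmox1 was called, at 58.03, 82.9 and 139.5 CPM (log2 0.92 ± 0.28 SE, edgeR adjusted p = 0.0487), and this call was lost in 5 of the 6 fits that left out a sample. It was kept without KCl 180 min replicate 1, and its change ran from 0.52 without KCl 180 min replicate 3 to 1.17. The astrocyte markers summed to 3103 to 6374 CPM there, and their part in it was not tested. Mt3 had a change of -0.78 ± 0.28 (SE, edgeR adjusted p = 0.101), at 6.15, 7.32 and 7.40 CPM. After Bic+4AP none of the 9 genes was called at 15 min (0.0511% of genes called) or at 180 min (14.2%), with 2 samples a group. At an unadjusted p under 0.05 edgeR gave 0 and 1 of the 9 (Mt1 at 180 min), and DESeq2 called 0 in both. Mt1 at 180 min of Bic+4AP was at 1104 and 1244 CPM (log2 0.54 ± 0.24 SE, edgeR adjusted p = 0.12). The astrocyte markers there summed to 1965 and 3712 CPM against 4951 to 6030 CPM basally, with 4 of 12 called downward. The oligodendrocyte lineage sum was 1025 and 1660 CPM against 2409 to 3172 CPM, with 3 of 8 tested markers called downward and 1 upward. Of 10 neuron markers 3 were called downward, and of 3 tested microglia markers 2 upward. The part of these shifts was not tested.

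Whether the response itself differed between stages was tested as the 21DIV change minus the 7DIV change. For 15 min of KCl, where 2.01% of genes were called, 1 of the 9 genes passed: Txnrd1, with a difference of 1.07 ± 0.27 (SE, edgeR adjusted p = 0.0325). It went up at 21DIV (log2 0.66) and had -0.42 at 7DIV, where it was at 24.4, 33.5 and 34.3 CPM against 37.9, 42.95 and 43.9 CPM basally. This call was kept without basal 21DIV replicate 1 or 21DIV KCl replicate 3, and lost without each of the other 10 samples, with differences from 0.91 to 1.21. Srxn1 had the larger difference, 1.48 ± 0.41 (SE, edgeR adjusted p = 0.0505), just outside the threshold, and DESeq2 called it together with Txnrd1. For Hmox1, whose 7DIV counts are few, the difference was 0.76 ± 0.60 (SE, edgeR adjusted p = 0.597). None of the 9 differed in response between stages for 180 min of KCl (0.775% of genes called), 15 min of Bic+4AP (0.00852%) or 180 min of Bic+4AP (4.94%). At an unadjusted p under 0.05 these gave 4, 1 and 2 genes by edgeR, and 0 calls each by DESeq2.

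In the stimuli experiment all 10 genes were tested, among 12023 genes. KCl changed 1 of them at 1 of 3 times. None was called at 15 min (7.23% of genes called) or at 180 min (0.765%), and Hmox1 was called at 45 min (0.765%). At an unadjusted p under 0.05 edgeR gave 1 gene at 15 min (Nfe2l2, which DESeq2 called) and 6 at 180 min (Hmox1, Mt1, Mt2, Nfe2l2, Srxn1 and Txnrd1, of which DESeq2 called 0). Each KCl and Bic group held 2 samples and all were compared with the same 3 basal samples.

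Hmox1 was called lower at 45 min of KCl. The basal samples were at 42.4, 43.2 and 47.4 CPM and the 45 min samples at 20.8 and 29.3 CPM, with a log2 change of -0.81 ± 0.20 (SE, edgeR adjusted p = 0.0316), a call that was lost without each of the 5 samples in turn (changes from -1.07 to -0.57). The astrocyte markers summed to 4919.5 to 4957 CPM at 45 min of KCl and 3132 to 3718 CPM basally, and their part in this was not tested. At 15 min, where the maturation experiment had all its KCl samples above basal, the 2 samples were at 34.9 and 43.9 CPM (log2 -0.18 ± 0.18 SE, edgeR adjusted p = 0.63). Srxn1 at 15 min was at 87.8 and 92.6 CPM against 67.1, 78.5 and 93.8 CPM (log2 0.18 ± 0.17 SE, edgeR adjusted p = 0.582). The 15 min KCl changes of these genes at 21DIV thus were 1.30 and 1.16 in one experiment and -0.18 and 0.18 in the other. Each change was measured from the basal samples of its own experiment, and the difference between the experiments was not tested.

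Mt2 after 45 min of KCl was at 208 and 239 CPM, below the basal 381, 385 and 387 CPM, with -0.78 ± 0.21 (SE, edgeR adjusted p = 0.0625). At 180 min it was at 226 and 265 CPM (log2 -0.64 ± 0.21 SE, edgeR adjusted p = 0.159). Both times lay apart from the basal samples and neither passed the test. Nfe2l2 at 180 min had 0.67 ± 0.22 (SE, edgeR adjusted p = 0.156), from 40.4 and 61.4 CPM against 26.9, 32.1 and 38.7 CPM.

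Bic changed 1 of the genes at 15 min and 2 at 45 min. Hmox1 was called lower at 15 min (3.42% of genes called), with 26.3 and 27.9 CPM and a log2 change of -0.72 ± 0.21 (SE, edgeR adjusted p = 0.0375). It was also called lower at 45 min (7.45% called), with 22.3 and 34.3 CPM and -0.62 ± 0.19 (SE, edgeR adjusted p = 0.0325). Nfe2l2 was called higher at 45 min, at 48.5 and 55.4 CPM (log2 0.68 ± 0.20 SE, edgeR adjusted p = 0.0275). None of the 10 was called at 180 min (0.765%), where 1 had an unadjusted p under 0.05 by edgeR (Txnrd1) and 0 were called by DESeq2. The Hmox1 call at 15 min was lost without each of the 5 samples, that at 45 min without any but Bic 45 min replicate 2 (changes from -0.96 to -0.33), and DESeq2 called neither. The Nfe2l2 call was lost without basal replicate 1, basal replicate 5 or Bic 45 min replicate 2 (changes from 0.56 to 0.85). The astrocyte markers summed to 5797 to 6708 CPM at 45 min of Bic, above the basal samples, and their part in the Nfe2l2 change was not tested. Set directly against KCl, Bic differed in none of the 10 genes at 15 min (0% of genes called), 45 min (0.682%) or 180 min (0.732%). Each time 1 gene had an unadjusted p under 0.05 by edgeR (Hmox1, Mt2 and Nfe2l2), and DESeq2 called 0.

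Silencing with TTX for 48 h came with changes in 3 of the 10 genes, in a comparison where 21.6% of all genes were called. Mt3, the neural metallothionein, rose from 35.3, 41.6 and 45.8 CPM to 88.5, 93.8, 107 and 119 CPM (log2 1.32 ± 0.18 SE, edgeR adjusted p = 1.81e-07), with no overlap. Nfe2l2 rose from 26.9, 32.1 and 38.7 CPM to 37.9, 49.2, 52.9 and 67.2 CPM (log2 0.67 ± 0.18 SE, edgeR adjusted p = 0.00373), with 1 silenced sample below the highest basal one. Hmox1 fell from 42.4, 43.2 and 47.4 CPM to 20.6, 22.2, 28.5 and 31.5 CPM, again apart (log2 -0.75 ± 0.17 SE, edgeR adjusted p = 0.000527). The Nfe2l2 call was lost without basal TTX replicate 1 or basal replicate 5 (changes from 0.53 to 0.81), and the other 2 were kept without each of the 7 samples.

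Mt1 and Srxn1 passed the adjusted p in this comparison but not the 1.5-fold limit. Mt1 was at 1144, 1618, 1879 and 2116 CPM after TTX (log2 0.52 ± 0.14 SE, edgeR adjusted p = 0.00287) and Srxn1 at 44.4, 53.2, 69.9 and 76.1 CPM (log2 -0.39 ± 0.15 SE, edgeR adjusted p = 0.0486). Mt2 had a change of 0.02, with 234.8 to 522 CPM after TTX around a basal mean of 384 ± 3.12 CPM (SD, n = 3). The astrocyte markers summed to 3132 to 3718 CPM in basal and 8586 to 9496 CPM in basal TTX samples, all 12 of them being called upward (median log2 change 1.10), and the oligodendrocyte lineage sum was 756 to 1202 CPM basally and 2104 to 2174 CPM after TTX. The neuron sum was lower after TTX, at 7302 to 8459.6 CPM against 9369.9 to 10107 CPM, with 1 of 10 markers called downward. The microglia sum was also lower, at 3.33 to 6.39 CPM against 7.45 to 9.31 CPM, with 1 of 2 tested markers called downward. In all 4 lists the groups did not overlap, and their part in the Mt3, Nfe2l2 and Hmox1 changes was not tested.

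Of all comparisons of a stimulus with its control, the one at 180 min after TTX withdrawal had the largest number of calls among these genes. There 8 of the 10 rose, Srxn1, Hmox1, Mt2, Txnrd1, Gclc, Gclm, Mt1 and Nfe2l2, where 14.0% of all genes were called and 7.33% upward. The median log2 change of the 10 genes was 1.09 against 0.02 for all genes. Each of the 8 genes had each of their 3 TTXw samples above all 4 basal TTX samples. The calls rest on these same samples, and how many of all genes separate like this was not counted. All 8 calls were kept without each of the 7 samples in turn and in all 9 other settings. The study's protocol states identical washes for control neurons, but the labels do not say which libraries these are.

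Srxn1 had the largest change. It was at 44.4, 53.2, 69.9 and 76.1 CPM under TTX and at 402, 465 and 481 CPM after withdrawal, a log2 fold change of 2.89 ± 0.14 (SE, edgeR adjusted p = 3.36e-18) or 7.40-fold. Hmox1 followed, from 20.6, 22.2, 28.5 and 31.5 CPM to 171, 184 and 197 CPM (log2 2.80 ± 0.16 SE, edgeR adjusted p = 7.78e-17, 6.97-fold). The withdrawal samples of both genes were also above every basal, KCl and Bic sample of the experiment.

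The thioredoxin and glutathione enzymes rose together. Txnrd1 went from 53.9, 62.3, 68.7 and 80.2 CPM to 154, 195 and 197 CPM (log2 1.45 ± 0.14 SE, edgeR adjusted p = 2.55e-10). Gclc, which had not passed the test between stages, went from 21.5, 21.5, 27.1 and 44.6 CPM to 63.9, 69.1 and 69.4 CPM (log2 1.24 ± 0.20 SE, edgeR adjusted p = 1.02e-05). Gclm went from 41.5, 49.9, 57.5 and 68.0 CPM to 89.0, 107 and 120.0 CPM (log2 0.94 ± 0.16 SE, edgeR adjusted p = 2.01e-05). The mRNA of their regulator, Nfe2l2, went from 37.9, 49.2, 52.9 and 67.2 CPM to 76.7, 101 and 103 CPM (log2 0.86 ± 0.17 SE, edgeR adjusted p = 0.000229), the smallest of the 8 changes.

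The metallothioneins split. Mt2 rose from 235, 389, 403 and 522 CPM to 1066, 1163 and 1542 CPM (log2 1.69 ± 0.17 SE, edgeR adjusted p = 7.03e-10). Mt1 rose from 1144, 1618, 1879 and 2116 CPM to 3076, 3249 and 3310.1 CPM (log2 0.93 ± 0.13 SE, edgeR adjusted p = 2.16e-06). Mt3 overlapped between the groups, at 81.2, 113.6 and 141.2 CPM after withdrawal against 88.5, 93.8, 107 and 119 CPM (log2 0.12 ± 0.17 SE, edgeR adjusted p = 0.678). Mt1 and Mt2 are close paralogues, and how reads that match more than 1 gene were counted is not given in the sources used here. Nqo1 rested on 5, 6 and 14 counts in the 3 withdrawal samples and 3, 4, 6 and 8 in the 4 silenced ones, and a change was not detectable at this depth (log2 0.73 ± 0.57 SE, edgeR adjusted p = 0.413).

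**Figure D2:**
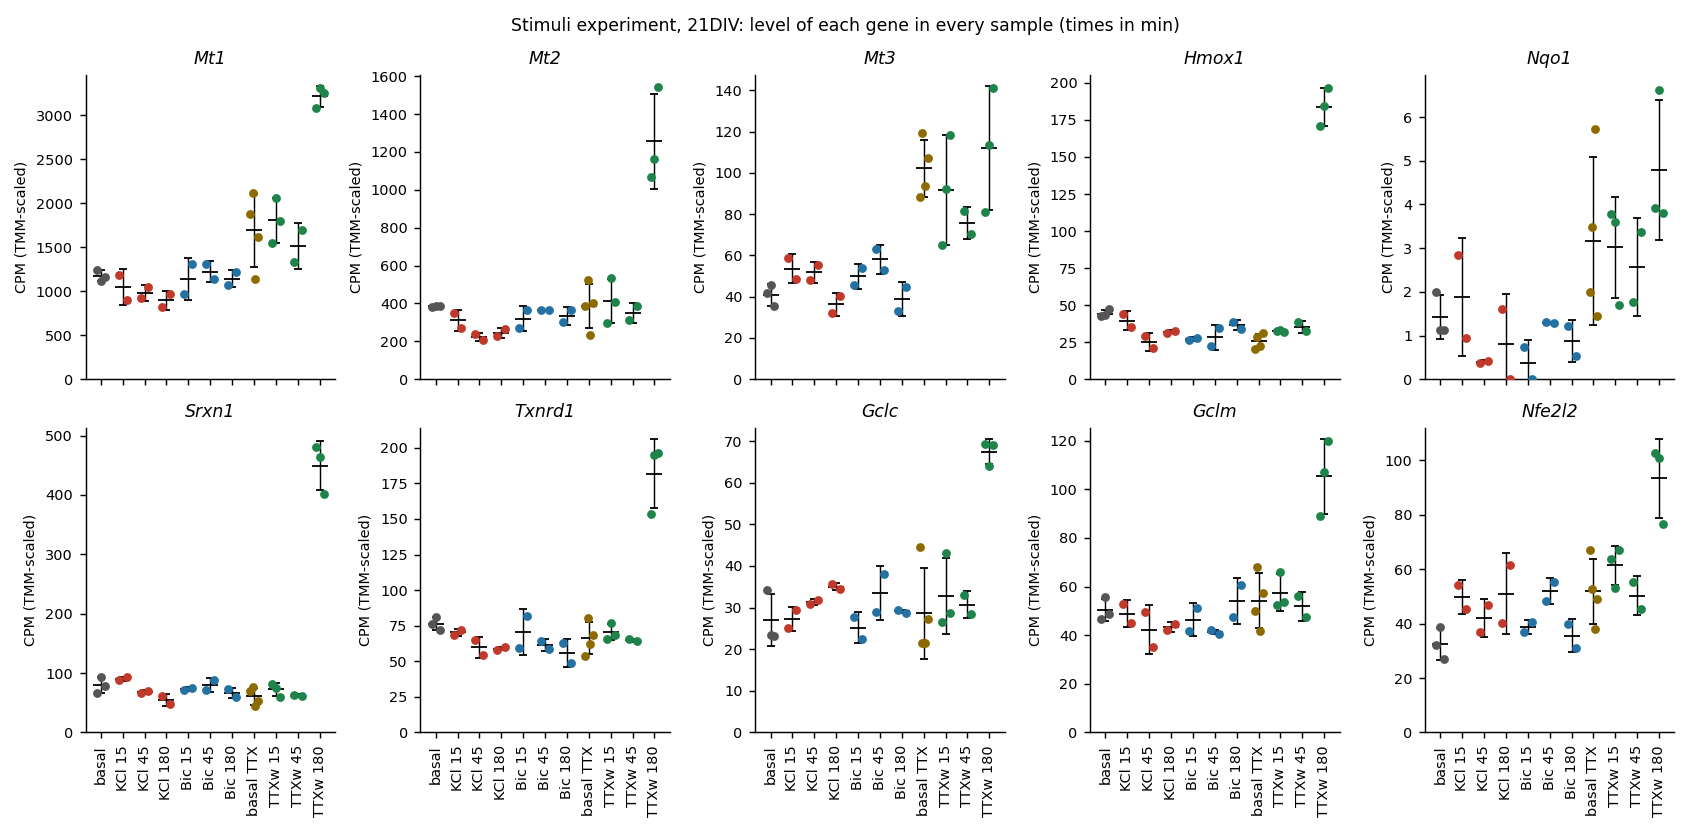
Level of each of the 10 genes in every sample of the stimuli experiment at 21DIV (y axes, TMM-scaled CPM on linear scales from 0; x axes, stimulus and time in min). Points are samples, and black bars give mean ± SD of 2 to 4 samples, cut at 0. At TTXw 180 min, Srxn1 (402 to 481 CPM) and Hmox1 (171 to 197 CPM) stood above every other sample of the experiment.

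At the earlier times the rise did not pass the test. None of the 10 genes was called at 15 min (0% of genes called) or 45 min (0.383%) after withdrawal. At an unadjusted p under 0.05 edgeR gave 0 genes at 15 min and 2 at 45 min (Hmox1 and Mt3), and DESeq2 called 0 at both. Srxn1 was at 60.3, 75.5 and 81.6 CPM at 15 min and 60.6 and 63.6 CPM at 45 min. Hmox1 was at 31.5, 32.5 and 33.1 CPM and 32.2 and 38.3 CPM, with a log2 change of 0.42 ± 0.20 (SE, edgeR adjusted p = 0.487) at 45 min. All these Hmox1 samples lay above the basal TTX ones, at 15 min by little. The Mt3 samples at 45 min lay below theirs. Mt2 was at 297, 409 and 533 CPM and 313 and 389 CPM.

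A direct comparison of 180 with 45 min, added after the data were seen, does not use the basal TTX samples. Both of its groups had 48 h of TTX and then the medium exchanges. Time since the exchanges and time since firing returned therefore cannot be told apart here. In this comparison 12.3% of genes were called, 5.56% upward, and 8 of the 10 genes were called, each of them upward. The log2 differences were 2.86 ± 0.19 (SE, edgeR adjusted p = 3.92e-14) for Srxn1, 2.39 ± 0.19 (SE, edgeR adjusted p = 1.01e-11) for Hmox1, 1.84 ± 0.21 (SE, edgeR adjusted p = 7.7e-08) for Mt2 and 1.49 ± 0.17 (SE, edgeR adjusted p = 5.51e-08) for Txnrd1. Gclc, Mt1, Gclm and Nfe2l2 had differences of 1.14, 1.09, 1.03 and 0.91. Nfe2l2 lost the call without TTXw 45 min replicate 3, with changes from 0.76 to 1.05. Mt3 had 0.56 ± 0.21 (SE, edgeR adjusted p = 0.061).

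At 180 min of KCl or Bic in the stimuli experiment, none of the 10 genes was called. After KCl, 2 of the 10 fitted changes were above 0, Nfe2l2 (log2 0.67) and Gclc (0.36), and 8 were below. After Bic, 3 were above 0 and 7 below. The difference between the TTXw response and the KCl response at 180 min, also added after the data were seen, was called for 6 of the 10 genes, each of them higher in TTXw, where 8.33% of all genes were called and 3.16% in that direction. For Srxn1 it was 3.46 ± 0.24 (SE, edgeR adjusted p = 1.12e-12), for Hmox1 3.26 ± 0.26 (SE, edgeR adjusted p = 1.22e-11) and for Mt2 2.34 ± 0.27 (SE, edgeR adjusted p = 1.62e-07). Txnrd1, Mt1 and Gclm had 1.82, 1.32 and 1.15. Against the Bic response, 7 genes were called higher in TTXw (9.80% of genes called, 3.92% in that direction), the same 6 and Gclc. Srxn1 had 3.15 ± 0.23 (SE, edgeR adjusted p = 2.63e-12) there and Gclc 1.14 ± 0.30 (SE, edgeR adjusted p = 0.0113). Against Bic, Gclc lost the call without basal replicate 1, Bic 180 min replicate 2 or Bic 180 min replicate 3, and Gclm without basal replicate 2, Bic 180 min replicate 2 or TTXw 180 min replicate 3 (differences from 0.89 to 1.40 and from 0.63 to 0.98). Gclm also lost it with summed transcripts (0.82), thinned counts (0.70) and a replicate block (0.90). Nfe2l2 passed neither test, with 0.19 ± 0.28 (SE, edgeR adjusted p = 0.752) against KCl and 0.74 ± 0.27 (SE, edgeR adjusted p = 0.075) against Bic. Each response was measured from its own control, basal TTX for TTXw and basal for KCl and Bic. KCl and Bic were added to the medium in the wells, whereas TTXw used exchanges with fresh medium. Neither the history of silencing nor the medium exchange can thus be told apart from the stimulus.

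In each of the 8 called genes, the 3 samples of TTXw 180 min were above every other sample of the stimuli experiment. The 8 were called on these same TTXw samples, so this is no separate evidence. Such separation was not counted over all genes. Over the 11 groups of the stimuli experiment, mean Srxn1 ran from 54.2 ± 10.1 CPM (SD, n = 2) at KCl 180 min to 449 ± 41.5 CPM (SD, n = 3) at TTXw 180 min. KCl 15 min was next at 90.2 ± 3.42 CPM (SD, n = 2). Mean Hmox1 ran from 25.02 ± 6.04 CPM (SD, n = 2) at KCl 45 min to 184 ± 12.9 CPM (SD, n = 3) at TTXw 180 min, with basal next at 44.3 ± 2.68 CPM (SD, n = 3). The gap to the next group was thus several times the SD for both. Mean Mt2 ran from 224 ± 21.5 CPM (SD, n = 2) at KCl 45 min to 1257 ± 252 CPM (SD, n = 3) at TTXw 180 min, with TTXw 15 min next at 413 ± 118 CPM (SD, n = 3). Mean Txnrd1 ran from 55.7 ± 9.77 CPM (SD, n = 2) at Bic 180 min to 182 ± 24.3 CPM (SD, n = 3) at TTXw 180 min, with basal next at 76.4 ± 4.75 CPM (SD, n = 3). Mean Nfe2l2 ran from 32.6 ± 5.91 CPM (SD, n = 3) at basal to 93.4 ± 14.5 CPM (SD, n = 3) at TTXw 180 min, with TTXw 15 min next at 61.4 ± 7.24 CPM (SD, n = 3). The lowest group of Nfe2l2 was the unstimulated one, unlike that of the other genes named here. Mean Mt3 ran from 36.3 ± 5.56 CPM (SD, n = 2) at KCl 180 min to 111.98 ± 30.1 CPM (SD, n = 3) at TTXw 180 min, with basal TTX next at 102 ± 13.8 CPM (SD, n = 4), and these top groups overlapped.

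**Figure D3:**
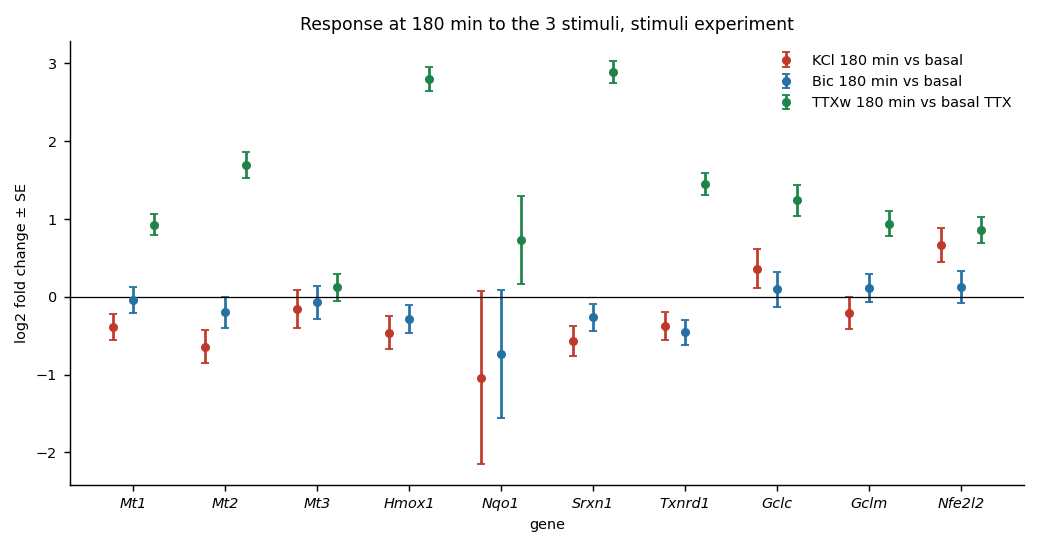
Log2 fold change of each of the 10 genes at 180 min in the stimuli experiment (y axis, ± SE from edgeR) for KCl and Bic against basal and TTXw against basal TTX (colours). For Srxn1 the TTXw response was 2.89, the KCl response -0.57 and the Bic response -0.26. For Mt3 all 3 lay between -0.16 and 0.12.

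Cell type markers moved with the withdrawal response too. The 12 astrocyte markers summed to 8586 to 9496 CPM under TTX and 12306 to 16706 CPM 180 min after withdrawal, and 6 of the 12 were called upward with a median log2 change of 0.64. Their changes ran from 0.00 to 1.00, and 5 of the 10 antioxidant and metallothionein genes (Srxn1, Hmox1, Mt2, Txnrd1 and Gclc) changed by more than the highest of them. The 10 neuron markers summed to 7302 to 8459.6 CPM and 4534 to 5440.2 CPM, with 6 called downward, and 5 of the 8 tested oligodendrocyte lineage markers were called upward. The microglia sum stayed at 1.52 to 5.21 CPM after withdrawal against 3.33 to 6.39 CPM. The part of these shifts in the withdrawal response was not tested.

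**Figure D4:**
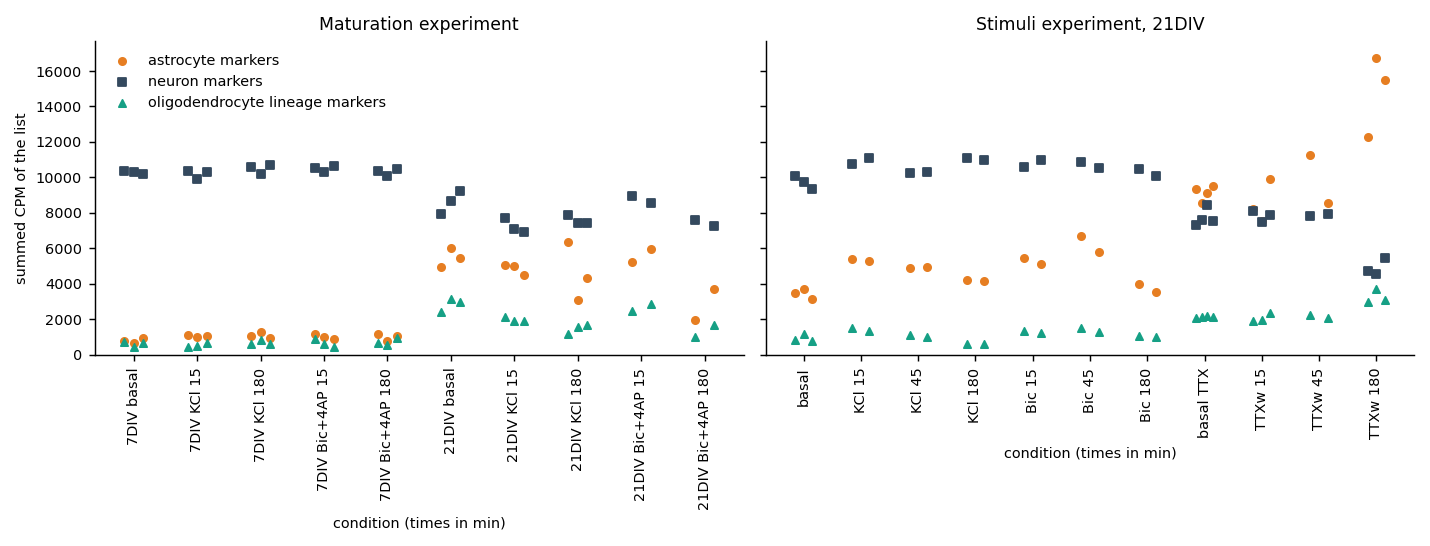
Summed level of astrocyte (12 genes), neuron (10) and oligodendrocyte lineage (10) markers in every sample (y axis, TMM-scaled CPM from 0; x axes, condition with time in min; left, maturation; right, stimuli experiment). The astrocyte sum was highest at TTXw 180 min (12306 to 16706 CPM), where the neuron sum was lowest (4534 to 5440.2 CPM).

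A wider list of 35 glutathione, thioredoxin and other NRF2-linked genes, the 10 genes left out, was followed in the same comparisons. At TTXw 180 min, 6 of the 34 tested were called, each of them upward, where 14.0% of all genes were called and 7.33% upward. The median log2 change was 0.34 against 0.02 for all genes. The largest changes were Maff (5.45 ± 0.39, SE), Osgin1 (2.87 ± 0.44, SE) and Slc7a11 (1.70 ± 0.19, SE). These encode a small MAF protein, an oxidative stress-induced growth inhibitor and the cystine carrier of the glutathione pathway. Between 45 and 180 min, Osgin1 and Slc7a11 differed by 2.47 ± 0.53 and 1.52 ± 0.23 (SE). Maff differed by 2.24 ± 0.34 (SE), much less than from basal TTX, so its rise was not confined to the later time. Blvrb, which acts after haem oxygenase, had -0.68 without passing the test (edgeR adjusted p = 0.132). Under TTX alone (21.6% of all genes called) 8 were called upward and 2 downward of 34. They were led by Maff (-3.53 ± 0.46, SE), Prdx6 (1.97 ± 0.16, SE) and Gpx1 (1.35 ± 0.14, SE), the last 2 being peroxide-removing enzymes. The TTX and TTXw comparisons share the basal TTX samples, so their level enters both, for Maff as for Hmox1.

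In the maturation experiment, 10 of 32 genes of this list were called upward and 5 downward between the stages (33.1% of all genes called). They were led by Osgin1 (2.90 ± 0.84, SE), Sesn2 (-2.52 ± 0.65, SE) and Maff (-2.44 ± 0.62, SE). The first is the growth inhibitor named above, Sesn2 encodes a stress-induced sestrin, and Maff again is the small MAF protein. After 15 min of KCl at 21DIV (6.21% of all genes called), 4 of 35 were called upward and 0 downward. The median log2 change was 0.38 against 0.00 for all genes. The calls were led by Maff (2.08 ± 0.45, SE), Blvrb (1.68 ± 0.36, SE) and Gstm1 (0.71 ± 0.18, SE). Blvrb encodes a biliverdin reductase and Gstm1 a glutathione transferase.

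The genes around zinc were followed as another list. Of 14 tested genes among MTF1 and the zinc transporters, 0 were called upward and 1 downward at TTXw 180 min (14.0% of all genes called), the synaptic vesicle zinc transporter Slc30a3 (-0.78 ± 0.16, SE). With DESeq2 as with edgeR, Mt1 and Mt2 were called there. Between the stages (33.1% of all genes called) 4 of 14 were called upward and 1 downward, led by Slc30a3 (6.15 ± 0.47, SE), Slc39a12 (2.79 ± 0.60, SE) and Slc30a10 (1.06 ± 0.36, SE). After 15 min of KCl at 21DIV (6.21%), 1 was called upward and 2 downward, and under TTX (21.6%) 4 upward and 2 downward.

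**Figure D5:**
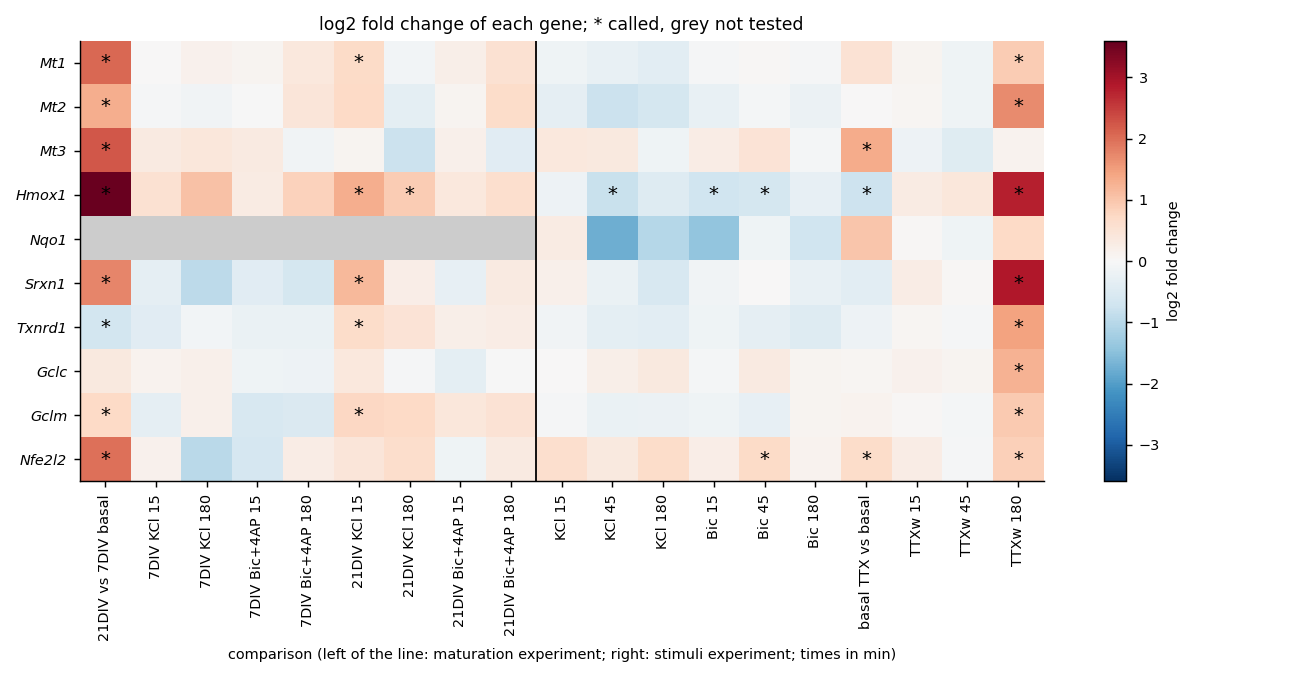
Log2 fold change of each of the 10 genes (rows) in 19 comparisons (columns, times in min; stimuli against the basal samples of their stage and experiment, TTXw against basal TTX), red for higher and blue for lower. Asterisks mark called genes and grey marks Nqo1, which was not tested in the maturation experiment. The first column (7 up, 1 down) and the last (8 up) hold most of the calls.

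Across the 21 conditions, each experiment centred on its own mean, the genes most like each of the 9 that could be compared were found among 8431 genes by Pearson's r of mean log2 CPM. Conditions of 1 experiment share cultures, depth and cell composition, so r is a description. Mt1 was most like Fth1 (r = 0.974) and S100a16 (r = 0.973), the first being the ferritin heavy chain. Mt2 was most like Mt1 (r = 0.930) and Srxn1 (r = 0.911), both among the 10 genes. Srxn1 was most like Hmox1 (r = 0.926) and Stat3 (r = 0.915), and Gclm was most like Igfbp2 (r = 0.954) and Hmox1 (r = 0.943). Hmox1 was most like Igfbp2 (r = 0.964) and Slco1c1 (r = 0.957). Mt3 was most like Dbi (r = 0.963) and Cxcl14 (r = 0.963), and Nfe2l2 most like Slco1c1 (r = 0.958) and Gng12 (r = 0.958). The values were lower for the other 2 genes, with Fgfr1 (r = 0.904) and Pip4p2 (r = 0.836) for Gclc and Ptbp1 (r = 0.825) and Vim (r = 0.804) for Txnrd1. Within the experiments alone, r of Txnrd1 with Ptbp1 was 0.609 in the maturation and 0.905 in the stimuli experiment, and with Vim 0.441 and 0.870. For Hmox1 with Slco1c1 it was 0.996 and 0.728, and for Hmox1 with Igfbp2 0.990 and 0.818. The other pairs had r from 0.702 to 0.991 in the maturation and from 0.880 to 0.953 in the stimuli experiment.

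Among the 10 genes themselves, Hmox1 and Gclm (r = 0.943), Mt1 and Hmox1 (r = 0.938) and Mt1 and Mt2 (r = 0.930) were the closest pairs over the 21 conditions. Txnrd1 had the lowest values, with r from 0.0605 (Nfe2l2) to 0.620 (Gclc). It was the gene that fell with stage while the others rose or did not pass the test. Mt3 was closer to Mt1 (r = 0.915) than to Mt2 (r = 0.789).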

How the data were processed

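The deposited files were 2 tables of raw counts per RefSeq transcript, which the authors made from CEL-Seq2 3' reads aligned with STAR to mm10 and counted with ESAT. Whether unique molecular identifiers were collapsed, and how multi-mapping reads were treated, is not given in the sources used here. Accessions were matched to gene symbols (80.75% of 97700 transcripts in the maturation table, 80.87% of 96722 in the stimuli table). Unmatched transcripts held 18.53% and 19.25% of counts and were left out. The transcript with the highest total stood for its gene. For Mt1, Txnrd1 and Gclc, the other transcripts of the gene held nearly equal counts, and whether these are the same reads was not tested.

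The 55 samples were grouped by their labels. Each table was analysed on its own with edgeR 4.0.16 in R 4.3.3: genes over 5 CPM in 2 or more samples, TMM factors, the quasi-likelihood test and Benjamini-Hochberg adjustment over all genes tested. The basal stage comparison was fitted on its 6 samples, and all others in 1 fit per experiment (28 and 27 samples). Comparisons with the same controls are not independent. In count data simulated with 200 changed genes the scripts were tested first. The 10 genes, the other lists and the 26 comparisons were chosen with earlier results of these data known, and 3 comparisons were added after the data were seen. Besides the 10 genes, the 3 largest called changes of each list and the 2 most alike genes by r were named, and Blvrb was named after its values were seen. Alternatives were the likelihood ratio test, DESeq2 1.42.0, RLE size factors, no filter or filterByExpr, counts summed over transcripts, thinned counts, the compared groups only, a replicate block and leaving out each sample. No pair of replicates was as close as repeated counting of 1 library would be (chi-square per degree of freedom 2.17 to 20.24), so each was used as a sample, which does not show that they were separate cultures. The labels give 23 days for samples the study calls 21DIV. One stimuli sample (basal replicate 5) has a description that reads replicate 2, and 1 column name reads 2DIV for 21DIV. Promoter windows were taken from RefSeq GRCm38.p6.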

Additional observations from a re-analysis of the deposited data

Results flagged for a closer look

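The response to 15 min of KCl differed between the stages for Txnrd1 by 1.07 on the log2 scale, the one gene of the 9 tested to pass the test of that difference (edgeR adjusted p = 0.0325). For that difference 2.01% of all genes were called. The Txnrd1 call was kept in 2 of the 12 fits that left out a sample and in 6 of the 9 other settings. After TTXw the change from basal TTX differed between 180 and 45 min for 8 of the 10 genes in the comparison added after the data were seen. There 12.3% of all genes were called. The log2 differences were 2.86 for Srxn1, 2.39 for Hmox1, 1.84 for Mt2, 1.49 for Txnrd1, 1.14 for Gclc, 1.09 for Mt1, 1.03 for Gclm and 0.91 for Nfe2l2. In the only group of 4 samples (basal TTX), no gene had a sample set apart beyond Dixon's 95% critical value, and groups of 3 or fewer cannot be tested in this way.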

How the results depend on the processing

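Of 29 comparisons, 17 kept their count of called genes within 1.5 times in all 9 other settings, among them the stage comparison, TTX and TTXw at 180 min, and no called change turned its direction. Within that limit, the stage comparison had 6 calls in place of 8 with thinned counts or the replicate block, losing Gclm and Txnrd1, and the TTXw response minus the Bic response lost Gclm with summed transcripts, thinned counts or the block. In 15 min of KCl at 21DIV, 3 genes were called in place of 5 with summed transcripts, thinned counts, the compared groups only or the replicate block. In 180 min of KCl at 21DIV, 2 were called in place of 1 with the likelihood ratio test or no filter, and 0 with filterByExpr, summed transcripts, thinned counts, the compared groups only or the replicate block. The stage difference at 15 min of KCl gave 2 in place of 1 with the likelihood ratio test or DESeq2, 3 with no filter, and 0 with thinned counts, the compared groups only or the replicate block. In the stimuli experiment, 45 min of KCl gave 2 in place of 1 with the likelihood ratio test, no filter or the compared groups only, and 0 with summed transcripts, thinned counts or the replicate block. Bic at 15 min gave 0 in place of 1 with DESeq2, no filter, filterByExpr, summed transcripts, thinned counts or the replicate block. Bic at 45 min gave 1 in place of 2 with DESeq2, no filter or filterByExpr, and 0 with summed transcripts, thinned counts or the replicate block. A count of 0 became 1 with no filter for 180 min of KCl at 7DIV, 180 min of Bic+4AP at 21DIV, the stage difference at 180 min of KCl, and KCl at 180 min and Bic against KCl at 45 min in the stimuli experiment. It became 1 with the compared groups only for 180 min of Bic+4AP at 21DIV, KCl at 15 and 180 min and Bic against KCl at 45 min in the stimuli experiment. It also became 1 with filterByExpr for 180 min of Bic+4AP at 21DIV and for 15 min of KCl in the stimuli experiment, with the likelihood ratio test for the stage difference at 180 min of KCl and for 15 min of KCl in the stimuli experiment, and with DESeq2 or RLE size factors for the latter. The cause of these shifts was not tested.

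Leaving out 1 sample at a time gave 2 to 5 calls for 15 min of KCl at 21DIV, 0 to 3 for 180 min, 0 to 2 for 180 min of Bic+4AP, 0 to 3 and 0 to 1 for the stage differences at 15 and 180 min of KCl, and in the stimuli experiment 0 to 1 for 15 min of KCl, 0 to 0 for 45 min of KCl, 0 to 0 for 15 min of Bic and 0 to 1 for 45 min of Bic. It gave 8 to 8 for TTXw at 180 min and 6 to 8 for the stages. Where this left 1 sample in a group, that sample was assumed to vary like the other groups. Samples of the same replicate number gave no sign of deviating together. Correlations ran from -0.247 to 0.114 in the maturation experiment, over 0.1 in 2 pairs. In the stimuli experiment they ran from -0.093 to 0.103, over 0.1 in 1 pair. With groups this small a weak shared effect could be missed, so pairing is not excluded. Library sizes without TMM factors kept 191 of 210 group means of the 10 genes within 1 SD. Depth limits Nqo1 throughout and Hmox1, Mt3 and Nfe2l2 at 7DIV.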
